A study of Mus musculus with 8 samples.

Results

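The genes described here are 10 mouse genes of bone and stromal extracellular matrix: Ltbp1, Ddr2, Vcan, Col1a1, Col1a2, Col3a1, Fn1, Sparc, Bglap and Spp1. They were taken by symbol from the 31300 mouse genes of a table that also lists 20716 canine genes, and all 10 were found, each as 1 protein-coding gene. The table measures RNA from serum exosomes, lipid-bound particles released by cells into the circulation, of NCr nu/nu mice, a nude strain that lacks a thymus and so most T cells. There were 4 groups of 2 libraries. The OSCA-40 and OSCA-32 groups are serum at week 8 from mice injected in the tibia with 100000 cells of the canine osteosarcoma line of that name in 10 µl; the PBS group is serum at week 8 from mice injected with phosphate-buffered saline; the week 0 group is serum of all mice before any injection. Serum was pooled over the mice of a group, and the labels do not say whether its 2 libraries are separate pools. The p-values below rest on the spread of library pairs that may be technical repeats.

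Bone matrix is mostly type I collagen, a triple helix of Col1a1 and Col1a2 chains that osteoblasts secrete, mixed with type III collagen in soft stroma and hardened by mineral that osteocalcin (Bglap), osteopontin (Spp1) and osteonectin (Sparc) bind. Around the fibres lie fibronectin (Fn1), which cells grip through integrins, and versican (Vcan), a large proteoglycan that binds hyaluronan. The matrix also signals: Ddr2 is a receptor tyrosine kinase that fibrillar collagen activates, and Ltbp1 tethers the latent growth factor TGF-beta to the matrix until it is released. Osteosarcoma is a cancer of cells that lay down bone matrix.

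Each library summed to between 977106 and 989183, so the deposited values are relative amounts. Whether they are also corrected for transcript length, as TPM are, is not settled, so ranks among genes below are of the values as listed. The sequencing depth behind them is unknown. Canine genes took 68.4% and 70.7% of the OSCA-40 libraries and 44.7% and 43.3% of the OSCA-32 libraries, against 14.7% and 15.2% of the PBS libraries and 16.1% and 17.4% of the week 0 libraries. Canine genes thus had values in mice given no canine cells, and a value of a mouse gene is likewise not shown to come from the host. As deposited, the median tested mouse gene differed from PBS by -1.51 with OSCA-40 and by -0.55 with OSCA-32 on the log2 scale. Values were therefore also scaled on the bulk of the genes, after which these medians were -0.04 and -0.01. Scaled values, the log2 fold changes on log2(scaled value + 1) and their tests are relative to that bulk. Exosomal RNA in bulk serum cannot tell fewer vesicles of a kind from less of a transcript in each.

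Of the labelled material's own markers, the tetraspanin Cd9 was well above the median protein-coding mouse gene, at 29 and 26 with OSCA-40, 106 and 117 with OSCA-32, 208 and 192 with PBS and 198 and 234 at week 0. Another exosome tetraspanin, Cd63, was listed at only 3 to 7 in the 8 libraries. The median protein-coding mouse gene stood at 1 to 2 with OSCA-40, 3 with OSCA-32 and 5 in the PBS and week 0 libraries. Against those medians, the matrix genes spanned a wide range. In the 4 tumour-free libraries Ltbp1 averaged 871.75 and ranked 55 of 21474 protein-coding mouse genes, and Ddr2 averaged 187.75 and ranked 221. Fn1, at 42.75, lay above 95.4% of protein-coding genes, Sparc above 91.4%, Col1a2 above 86.7% and Col1a1 above 85.7%. Vcan, Bglap and Col3a1, at 10, 9.5 and 8.75, lay above 74.3%, 72.7% and 70.1%. Spp1, at 2.25, lay above only 14.9%.

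One member has near-identical copies, and their sequences are shown first because they limit what its values mean. Mice carry 3 osteocalcin genes side by side on the reverse strand of chromosome 3. In the GENCODE release M21 annotation of GRCm38 their coding sequences span 88383635 to 88384415 (Bglap), 88377870 to 88378650 (Bglap2) and 88368756 to 88369536 (Bglap3), and each is 288 bases long with its stop codon. Capitals mark the bases that differ from Bglap, 4 in Bglap2 and 13 in Bglap3:
Bglap: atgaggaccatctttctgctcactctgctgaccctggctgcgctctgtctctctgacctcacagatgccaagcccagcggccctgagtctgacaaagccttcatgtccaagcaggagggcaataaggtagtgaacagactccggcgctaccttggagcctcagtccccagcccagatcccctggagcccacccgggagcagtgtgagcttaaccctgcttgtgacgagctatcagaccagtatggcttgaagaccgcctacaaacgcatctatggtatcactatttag
Bglap2: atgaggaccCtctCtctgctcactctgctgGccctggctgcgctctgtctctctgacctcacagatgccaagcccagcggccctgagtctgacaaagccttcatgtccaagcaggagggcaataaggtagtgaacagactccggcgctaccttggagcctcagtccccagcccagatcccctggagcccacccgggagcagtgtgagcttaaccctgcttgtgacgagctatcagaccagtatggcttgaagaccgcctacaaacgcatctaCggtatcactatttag
Bglap3: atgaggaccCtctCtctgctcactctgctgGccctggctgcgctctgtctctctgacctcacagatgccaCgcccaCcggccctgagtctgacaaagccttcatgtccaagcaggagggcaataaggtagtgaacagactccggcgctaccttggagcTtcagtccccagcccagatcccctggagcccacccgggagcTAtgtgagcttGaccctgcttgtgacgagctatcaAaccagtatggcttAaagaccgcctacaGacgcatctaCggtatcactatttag

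Bglap is thus 98.6% identical to Bglap2 and 95.5% to Bglap3 over the coding sequence. Of the 588 distinct 31-base words in the annotated Bglap transcripts, on either strand, 62.9% also occur in another gene, and only Bglap2 and Bglap3 hold them. The median over 7638 tested mouse genes with annotated transcripts is 2.99%. Spp1 was the next highest member, with 14.3% of its words in the overlapping gene Gm42793. In the other 8 members the share ran from 0% in Vcan, which shares no word with any other annotated mouse gene, to 3.89% in Fn1. Words were counted in mouse transcripts alone, so sequence shared with canine genes was not examined. Ddr2, at 1.59%, holds 54 words that each occur in more than 10 genes, and Ltbp1, at 1.78%, holds 85; among the tested mouse genes 61.4% hold at least 1 such word.

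The first question was how the matrix genes in serum exosomes of mice carrying OSCA-40 stood against those of PBS mice. Set against the bulk of genes, Ltbp1 and Ddr2 fell, and none of the 9 tested members rose. Vcan also passed as lower, but it had reached the minimum of 10 for testing in 3 tumour-free libraries and in 0 tumour libraries, which tilts its test towards a lower value with a tumour. Type I and III collagen, fibronectin, Sparc and Bglap did not pass. In the limma fit over 7872 genes, at an adjusted p of 0.05, 3 of the 9 members were called, all lower and 1 of them Vcan, and 5.21% of the 7655 tested mouse genes in either direction. Of those mouse genes, 2.33% were lower and 2.89% higher; over all tested genes, canine ones included, 6.75% were called. With library totals alone in place of the scaling, 0.229% of the mouse genes called were higher, against 55.4% with it. The members were chosen with earlier results of these data known. Their called share, here and in the comparisons below, is therefore no measure of matrix genes as a class.

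Ltbp1 (chromosome 17, 75005568 to 75392512, forward strand) was listed at 139 and 148 with OSCA-40, 471 and 486 with OSCA-32, 1010 and 946 with PBS and 771 and 760 at week 0. The groups did not overlap, and both tumour groups lay below both tumour-free groups. As deposited, 92.5% of tested mouse genes lay below PBS without overlap with OSCA-40, and 64.8% with OSCA-32. After scaling, Ltbp1 averaged 303 ± 22.8 with OSCA-40 and 660 ± 38.1 with PBS (SD, n = 2 each). It fell by 1.12 ± 0.07 (SE) on the log2 scale, to 46.0% of the PBS level (limma adjusted p = 1.711e-04). A lower log2 fold change than that of Ltbp1 was found for 6.78% of tested mouse genes. The call held under all 19 alternative settings and left-out libraries, with adjusted p from 1.018e-06 to 0.01515 (limma).

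Ddr2 (chromosome 1, 169972307 to 170110762, reverse strand) was listed at 35 and 34 with OSCA-40, 66 and 74 with OSCA-32, 208 and 193 with PBS and 189 and 161 at week 0. As with Ltbp1, every tumour library was below every tumour-free library. Both genes kept this order after scaling, as did 4.61% of tested mouse genes. Scaled values were 72.8 ± 0.754 with OSCA-40 and 135 ± 8.71 with PBS (SD, n = 2 each), a log2 fold change of -0.88 ± 0.11 (SE; limma adjusted p = 0.00400). Of tested mouse genes, 10.2% had a lower log2 fold change than Ddr2. This call also held under all 19 alternatives, with adjusted p from 5.041e-06 to 0.04853 (limma).

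Vcan (chromosome 13, 89655312 to 89742509, reverse strand) had 0 in each OSCA-40 library, 9 and 5 with OSCA-32, 11 and 8 with PBS and 11 and 10 at week 0. Its tumour and tumour-free ranges overlapped, because the first OSCA-32 library lay within the PBS range. A PBS level of Vcan, carried over to the OSCA-40 libraries by the scaling, would be listed there at 3.11 and 2.97. It passed as lower than PBS (limma adjusted p = 0.0172), in a test it entered through tumour-free libraries alone. The fitted fold change of a gene listed at 0 depends on the pseudocount and is not a bound. The call was lost without either PBS library (adjusted p = 0.1522 without the first and 0.09251 without the second, limma), without either week 0 library (0.06067 and 0.05354) and with only these 4 libraries fitted (0.1625). Its range over all 19 alternatives was 4.115e-04 to 0.1625.

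**Figure D1:**
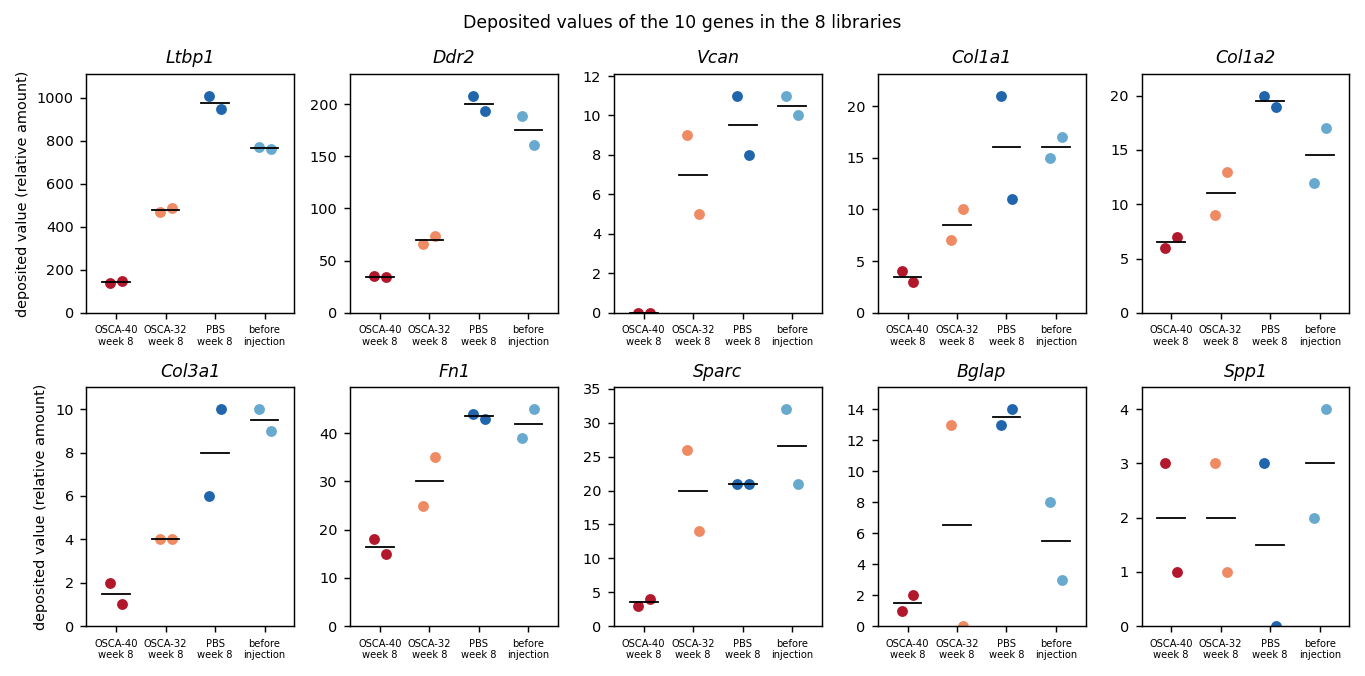
Deposited value (relative amount, linear axis from 0) of each of the 10 genes in each library; points are libraries, horizontal lines are the means of the 2 libraries of a group, and the vertical scale differs between panels. Ltbp1 reaches 1010 in PBS while Spp1 never exceeds 4, and Vcan is at 0 in each OSCA-40 library.

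The chains of fibrillar collagen had deposited values of 21 or less in every library. Col1a1 (chromosome 11, 94936224 to 94953042, forward strand) was listed at 4 and 3 with OSCA-40, 7 and 10 with OSCA-32, 21 and 11 with PBS and 15 and 17 at week 0. Col1a2 (chromosome 6, 4504814 to 4541544, forward strand) was listed at 6 and 7 with OSCA-40, 9 and 13 with OSCA-32, 20 and 19 with PBS and 12 and 17 at week 0. Col3a1 (chromosome 1, 45311538 to 45349706, forward strand) was listed at 2 and 1 with OSCA-40, 4 and 4 with OSCA-32, 6 and 10 with PBS and 10 and 9 at week 0. As deposited, all 3 lay lower with OSCA-40 than with PBS without overlap, as did all 9 tested members and 92.5% of tested mouse genes. After scaling the OSCA-40 and PBS ranges of all 3 overlapped, and the log2 fold changes were -0.44 ± 0.34 for Col1a1, 0.05 ± 0.25 for Col1a2 and -0.63 ± 0.44 for Col3a1 (SE; limma adjusted p = 0.521, 0.938 and 0.473). The 95% intervals ran from -1.24 to 0.36, from -0.54 to 0.65 and from -1.67 to 0.40, so changes of about 2-fold lie inside 2 of the 3.

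Fn1 (chromosome 1, 71585520 to 71653200, reverse strand), whose plasma form is made by the liver, was listed at 18 and 15 with OSCA-40, 25 and 35 with OSCA-32, 44 and 43 with PBS and 39 and 45 at week 0. The deposited values were lowest with OSCA-40, but scaled values were 34.8 ± 3.40 with OSCA-40 and 29.3 ± 0.816 with PBS (SD, n = 2 each). The log2 fold change of 0.23 ± 0.18 (SE) did not pass (limma adjusted p = 0.509), and with library totals alone it was -1.37 and passed. Fn1 was the 1 tested member whose scaled OSCA-40 values lay above both PBS values, as did 23.3% of tested mouse genes.

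Sparc (chromosome 11, 55394500 to 55423183, reverse strand) was listed at 3 and 4 with OSCA-40, 26 and 14 with OSCA-32, 21 and 21 with PBS and 32 and 21 at week 0. Both OSCA-40 libraries lay below all 6 others, also after scaling. The share of mouse genes below all 6 was not counted. Below PBS without overlap lay 92.5% of tested mouse genes as deposited and 25.7% after scaling. The log2 fold change against PBS was -0.86 ± 0.34 (SE), with an unadjusted p of 0.0398 that did not pass (limma adjusted p = 0.212). At an unadjusted p of 0.05, 4 of the 9 members and 19.3% of tested mouse genes differed in this comparison.

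Bglap, the mineral-binding hormone of osteoblasts (chromosome 3, 88383501 to 88384464, reverse strand), was listed at 1 and 2 with OSCA-40, 13 and 0 with OSCA-32, 13 and 14 with PBS and 8 and 3 at week 0. The 2 OSCA-32 libraries alone spanned nearly the whole range of the 8. Its log2 fold change with OSCA-40 against PBS was -1.32 ± 1.15 (SE; limma adjusted p = 0.574). Bglap3 was higher than Bglap in every library, at 24 and 20 with OSCA-40, 40 and 40 with OSCA-32, 54 and 60 with PBS and 51 and 55 at week 0, and Bglap2 ran from 0 to 4. Summed over the 3 copies the values were 25 and 22 with OSCA-40, 53 and 44 with OSCA-32, 69 and 74 with PBS and 59 and 59 at week 0. The sum differed between OSCA-40 and PBS by 0.04 ± 0.13 (SE; limma adjusted p = 0.910). Bglap3 made up most of the sum in every library, so the sum cannot tell whether Bglap itself was lower.

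**Figure D2:**
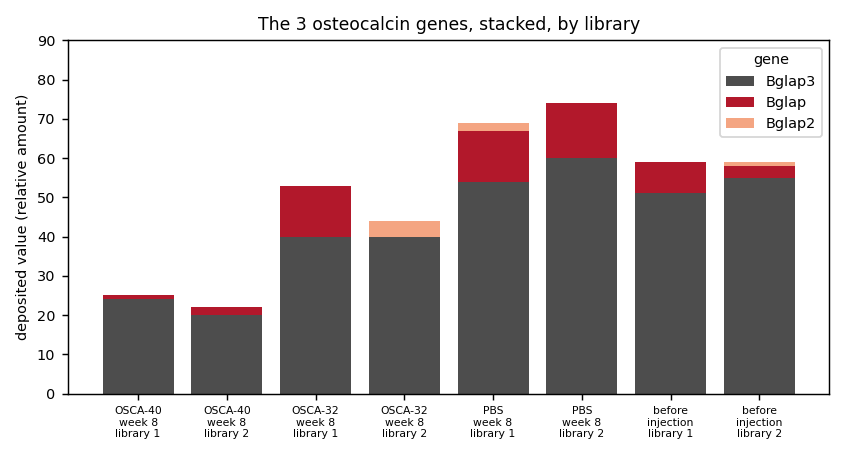
Deposited values of Bglap3, Bglap and Bglap2 stacked for each library (relative amount, linear axis from 0). Bglap3 makes up most of each bar, and Bglap varies between 0 and 14 where the summed height stays between 22 and 74.

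Spp1 (chromosome 5, 104435118 to 104441050, forward strand), the osteopontin gene that osteoblasts, osteoclasts and macrophages express, was listed at 3 and 1 with OSCA-40, 3 and 1 with OSCA-32, 3 and 0 with PBS and 2 and 4 at week 0. It was the 1 member that did not reach the minimum of 10 in 2 libraries and was not tested. The values are steps of 1, and a step of 1 is worth 2.07 and 2.16 scaled units in the OSCA-40 libraries but 0.680 and 0.669 in the PBS libraries, so the groups were not distinguishable for this gene. Of the 9 members that passed the minimum, Vcan and Col3a1 reached it in tumour-free libraries alone, which favours a lower value with a tumour. Col1a1, Col1a2 and Bglap reached it in only 1 tumour library each. They too needed tumour-free libraries to be tested, which leans the same way.

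**Figure D3:**
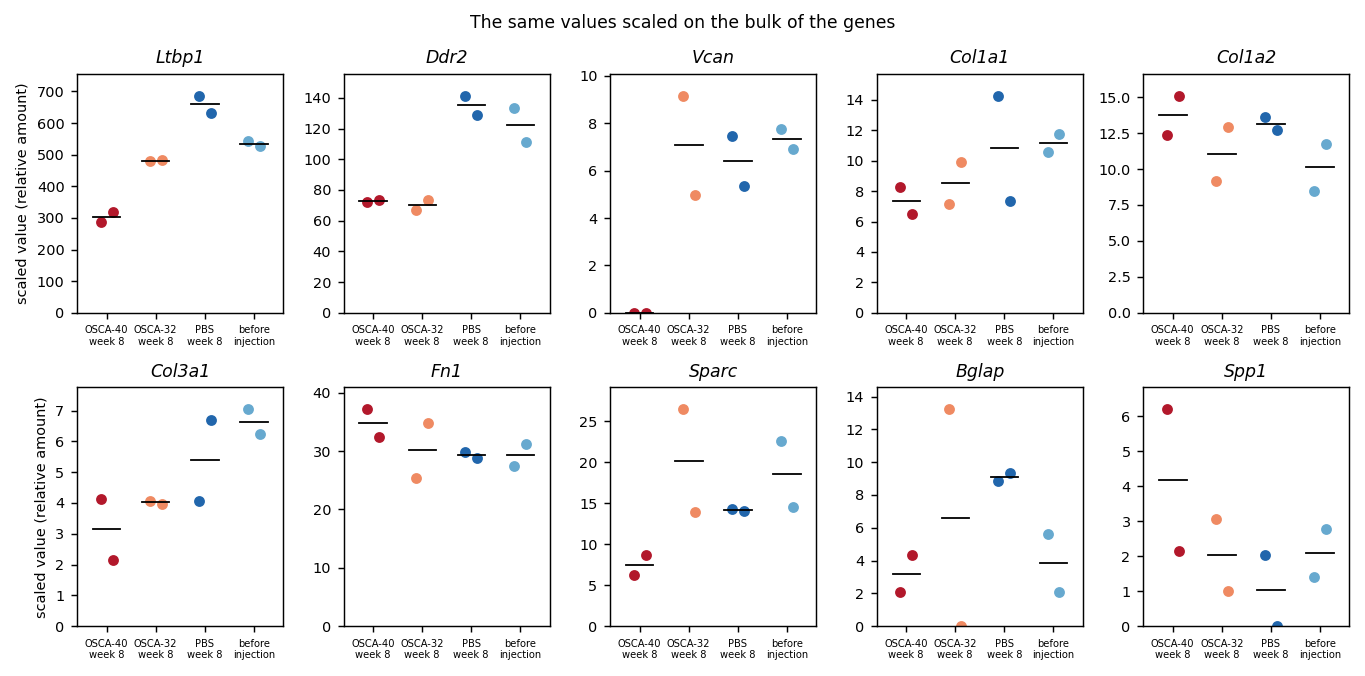
Values scaled on the bulk of the genes (relative amount, linear axis from 0) of the 10 genes in each library, with points for libraries and horizontal lines for group means. Ltbp1 and Ddr2 are lower in all 4 tumour libraries than in all 4 tumour-free ones, with Ddr2 at 67.2 to 73.6 against 111 to 141, while Fn1 in OSCA-40 libraries lies at 37.2 and 32.4, above PBS at 29.9 and 28.8.

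The second question was the same for OSCA-32. Ddr2 and Ltbp1 fell, and the other 7 tested members did not pass. So 2 of the 9 members, which were chosen with earlier results known, were called, both lower. Of tested mouse genes 0.549% were called in either direction. Of those mouse genes 0.17% were lower and 0.379% higher, and 1.11% of all tested genes were called. With library totals alone 1.71% of the mouse genes called were higher, against 69.0% with the scaling. Ddr2 averaged 70.4 ± 4.49 scaled with OSCA-32 and 135 ± 8.71 with PBS (SD, n = 2 each), and fell by 0.93 ± 0.11 (SE) on the log2 scale (limma adjusted p = 0.0112). Ltbp1 averaged 481 ± 2.49 with OSCA-32 and 660 ± 38.1 with PBS (SD, n = 2 each), and fell by 0.45 ± 0.07 (SE; limma adjusted p = 0.0463). Log2 fold changes lower than those of Ddr2 and Ltbp1 were found for 4.99% and 15.1% of tested mouse genes. The PBS libraries serve both this comparison and the previous one, so the lower values of Ddr2 and Ltbp1 in the 2 comparisons are not independent.

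Both OSCA-32 calls are fragile. That of Ddr2 was lost without either PBS library (limma adjusted p = 0.1201 without the first and 0.07669 without the second) or either OSCA-32 library (0.09243 and 0.05041), and its range over the 19 alternatives was 6.511e-04 to 0.1201. That of Ltbp1 held without either OSCA-40 library and was lost without each of the other 6, with adjusted p from 0.1034 to 0.2792 (limma); over the 19 alternatives it ran from 3.44e-04 to 0.4001.

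Among the members that did not pass, Vcan (0.09 ± 0.51), Fn1 (0.02 ± 0.18) and Sparc (0.42 ± 0.34) had log2 fold changes above 0 with OSCA-32. Col1a1 (-0.26 ± 0.34), Col1a2 (-0.25 ± 0.25), Col3a1 (-0.31 ± 0.44) and Bglap (-1.42 ± 1.15) had values below 0 (SE). Summed with its copies Bglap stood at 0.01 ± 0.13. As deposited, OSCA-32 lay below PBS without overlap for 6 of the 9 members and for 64.8% of tested mouse genes. Scaled values were below PBS without overlap for 3 of the 9 members (Ddr2, Ltbp1 and Col3a1) and for 21.5% of tested mouse genes; with OSCA-40 they were below for 5 of 9 (Vcan, Ddr2, Ltbp1, Sparc and Bglap) and for 25.7%. Across all 4 tumour and all 4 tumour-free libraries, Ddr2 and Ltbp1 were below without overlap, as were 4.61% of tested mouse genes.

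Whether the 2 lines differed was tested directly, OSCA-40 against OSCA-32. Ltbp1 and Vcan were lower with OSCA-40, and Ddr2 stood at nearly the same scaled level with both lines. These were 2 of the 9 members, against 1.82% of tested mouse genes called in either direction and 2.74% of all tested genes. Of the tested mouse genes 0.98% were lower and 0.836% higher; with library totals alone 0.309% of those called were higher, against 46.0% with the scaling. Between the lines, 12.3% of tested mouse genes had a lower log2 fold change than Ltbp1. Ltbp1 differed by -0.67 ± 0.07 (SE; limma adjusted p = 0.00565), which made its scaled level lowest with OSCA-40 (303), then OSCA-32 (481), week 0 (535) and PBS (660). The call was lost without the second OSCA-32 library (adjusted p = 0.05539, limma), and the range over 19 alternatives was 4.109e-05 to 0.1266. Vcan was lower with OSCA-40 (limma adjusted p = 0.0312), a call lost without each library outside the OSCA-40 group, with adjusted p from 0.06295 to 0.1295, and with a pseudocount of 4 (0.05676). Its range over the alternatives was 0.001738 to 0.2065. With only the groups compared fitted, neither Ltbp1 nor Vcan passed (limma adjusted p = 0.06125 and 0.2065). Vcan was also lost with the replicate block (0.06238).

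Ddr2 was listed lower with OSCA-40 than with OSCA-32, at 35 and 34 against 66 and 74, but the scaled values were 72.3 and 73.4 against 67.2 and 73.6. The difference of 0.05 ± 0.11 (SE) did not pass (limma adjusted p = 0.870), with a 95% interval from -0.21 to 0.31. Sparc differed by -1.28 ± 0.34 (SE) with an unadjusted p of 0.00720, which did not pass over all genes (limma adjusted p = 0.122). Its scaled values were 6.20 and 8.63 with OSCA-40 and 26.5 and 13.9 with OSCA-32. The remaining tested members, Col1a1, Col1a2, Col3a1, Fn1 and Bglap, had differences from -0.32 to 0.30, none of which passed. OSCA-40 lay below OSCA-32 without overlap for 8 of the 9 members and 76.9% of tested mouse genes as deposited, and for 3 (Vcan, Ltbp1 and Sparc) and 20.4% after scaling.

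**Figure D4:**
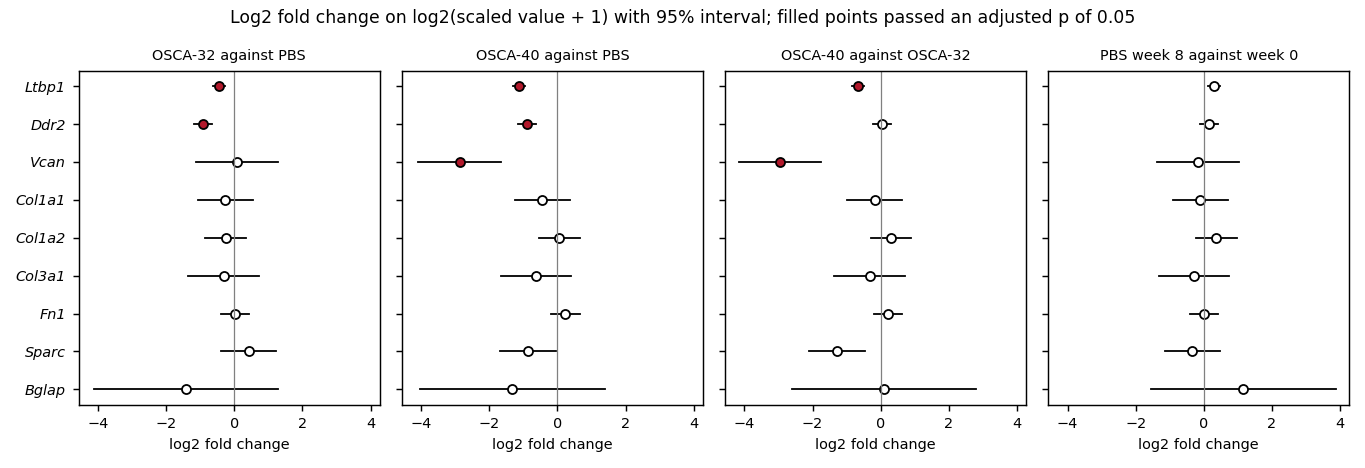
Log2 fold change of the 9 tested genes on log2(scaled value + 1) in the 4 comparisons (horizontal axis), with 95% intervals; filled points passed a limma adjusted p of 0.05. Filled points appear for Ltbp1 in 3 comparisons and for Ddr2 and Vcan in 2 each; those of Vcan involve a group listed at 0, so their position depends on the pseudocount.

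PBS at week 8 was set against week 0 to see how far the genes moved without a tumour. None of the 9 tested members passed, against 0.118% of tested mouse genes and 0.165% of all tested genes called in either direction (limma). At an unadjusted p of 0.05 there was 1 member, Ltbp1, and 4.57% of mouse genes. Ltbp1 was higher at week 8, by 0.30 ± 0.07 (SE; limma adjusted p = 0.543), with 1010 and 946 in PBS against 771 and 760 at week 0 as deposited. Both OSCA-32 values of Ltbp1, at 480 and 483 scaled, also lay below the week 0 values of 543 and 526. Ddr2 changed by 0.15 ± 0.11, Col1a2 by 0.36 ± 0.25, Sparc by -0.34 ± 0.34 and Bglap by 1.16 ± 1.15 (SE), and none passed. Scaled PBS values lay above week 0 without overlap for Ltbp1, Col1a2 and Bglap (19.4% of tested mouse genes) and below for Sparc (19.3%).

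The other genes of matrix biology gave the members a frame. Lists of collagens, collagen-processing enzymes, matrix receptors, proteoglycans, TGF-beta latency genes, mineralised-matrix genes, matrix glycoproteins, matrix proteases and osteoblast regulators held 137 genes that are not members, of which 43 were tested. None of the 43 passed in any of the 4 comparisons (limma), and 4, 3, 5 and 1 had an unadjusted p under 0.05 for OSCA-40 against PBS, OSCA-32 against PBS, OSCA-40 against OSCA-32 and PBS against week 0. Over all tested mouse genes the shares under 0.05 were 19.3%, 9.31%, 15% and 4.57% in the same order. The median log2 fold change of the 43 was 0.01 with OSCA-40 and 0.04 with OSCA-32 against PBS, close to the medians of all tested mouse genes.

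The most abundant non-members of these lists did not pass, with values on both sides of 0 for OSCA-40 against PBS. The basement-membrane collagen Col4a1 was listed at 11 and 15 with OSCA-40 and 39 and 32 with PBS, a log2 fold change of 0.18 ± 0.21 (SE), and the cartilage collagen Col2a1 had 0.27 ± 0.41. P4ha2, which hydroxylates proline in collagen chains, had -0.30 ± 0.14, and Adamts2, which trims procollagen, had -0.15 ± 0.21. The elastase Mmp12 was listed at 54 and 52 with OSCA-40 and 154 and 151 with PBS and had 0.12 ± 0.09, while the protease Adamts9 had 0.20 ± 0.16. Of the 6 tested TGF-beta latency genes Ltbp1 alone passed, and 5 of the 6 had log2 fold changes below 0. The 5 non-members had a median of 0.04 for OSCA-32 against PBS and 0.11 for OSCA-40 against OSCA-32. For OSCA-40 against PBS their median was -0.43, against -0.04 over all tested mouse genes. In that comparison Ltbp2 had -0.44 ± 0.33, Ltbp4 -0.44 ± 0.63, Tgfb1 -0.43 ± 0.35, Nrros -0.39 ± 0.22 and the receptor Tgfbr1 0.15 ± 0.15 (SE). Of the 3 tested matrix receptors Ddr2 alone passed. The integrin Itgav had 0.83 ± 0.34 (unadjusted p = 0.0430, limma adjusted p = 0.221) and the integrin Itgb5 0.09 ± 0.47. Of the 2 tested proteoglycans Vcan passed with OSCA-40, and the brain proteoglycan Bcan had -0.09 ± 0.46. Fbln2, a basement-membrane glycoprotein, had -0.85 ± 0.32 (unadjusted p = 0.0331, limma adjusted p = 0.193), the phosphate regulator Enpp1 had 0.09 ± 0.17, and Bglap3 had 0.26 ± 0.12. The growth factor receptors Fgfr1 and Bmpr2 had 0.01 ± 0.26 and 0.53 ± 0.21, the second with an unadjusted p of 0.0410 (limma adjusted p = 0.215). None of these non-members passed.

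Markers of the cells that make these proteins, or that could add them to serum, were set beside the results. The 8 osteoblast markers summed to a scaled 43.2 to 51.6 with OSCA-40, 44.8 to 56.7 with OSCA-32, 43.5 to 46.1 with PBS and 46.5 to 49.8 at week 0. None of the 4 tested passed, with -0.93 ± 0.32 for Alpl and 0.37 ± 0.22 for Phex (OSCA-40 against PBS, SE). Bglap2 had 0 in each OSCA-40 library, 0 and 4 with OSCA-32, 2 and 0 with PBS and 0 and 1 at week 0. The 8 fibroblast and stromal markers summed to 30.98 to 34.5 with OSCA-40, 37.8 to 40.7 with OSCA-32, 32.6 to 39.5 with PBS and 33.1 to 38.1 at week 0. Neither of the 2 tested passed (OSCA-40 against PBS, Pdgfra -0.60 ± 0.25 and Fap 0.27 ± 0.35, SE). Platelets, which store Sparc and Fn1 in their granules, had 8 markers that summed to 211 to 244 with OSCA-40, 87.5 to 96.7 with OSCA-32, 55.5 to 72.1 with PBS and 49.8 to 57.8 at week 0. Pf4 made up most of the OSCA-40 sum, listed there at 85 and 69 where the 8 markers summed to 118 and 98. Of the 3 tested, the platelet chemokines Pf4 and Ppbp rose with OSCA-40, by 2.76 ± 0.25 and 1.57 ± 0.26 (SE; limma adjusted p = 8.857e-04 and 0.0131). Itga2b had 0.34 ± 0.30 and did not pass. The 8 hepatocyte markers summed to 97.1 to 114 with OSCA-40, 72.3 to 73.6 with OSCA-32, 37.4 to 41.5 with PBS and 42.3 to 45.0 at week 0, and Alb and Trf rose with OSCA-40, by 1.70 ± 0.30 and 0.76 ± 0.17 (limma adjusted p = 0.0174 and 0.0387). Apoc3, the other hepatocyte marker tested, had 0.52 ± 0.70 and did not pass. The 7 endothelial markers summed to 153 to 155 with OSCA-40, 122 to 132 with OSCA-32, 108 to 120 with PBS and 119 to 137 at week 0. Pecam1 rose with OSCA-40, by 1.28 ± 0.15 (limma adjusted p = 0.00285), and was the 1 of 5 tested that passed. The others lay on both sides of 0, with 0.35 ± 0.12 for Vwf, 0.34 ± 0.40 for Eng, -0.32 ± 0.34 for Kdr and -0.94 ± 0.23 for Flt1 (unadjusted p = 0.00503, limma adjusted p = 0.0645). The 6 monocyte and macrophage markers summed to 12.9 to 24.8 with OSCA-40, 6.96 to 12.2 with OSCA-32, 18.1 to 20.4 with PBS and 12.5 to 16.9 at week 0. None was tested, Itgam and Lyz2 being the most abundant. With OSCA-40 Itgam was listed at 8 and 1, Lyz2 at 2 and 2, Cd14 at 1 and 2 and Adgre1 at 1 and 1. Cd68 and Csf1r had 0 in each OSCA-40 library, but were only at 4 and 3 and at 2 and 3 with PBS. The 8 vesicle components summed to 90.6 to 101 with OSCA-40, 152 to 160 with OSCA-32, 173 to 190 with PBS and 185 to 217 at week 0. Cd9 alone made up most of this sum in every library. With OSCA-40 Cd9 fell by 1.20 ± 0.11 (limma adjusted p = 7.480e-04) and was the 1 of 5 tested that passed. The others lay on both sides of 0, with 0.19 ± 0.36 for Cd81, -0.08 ± 0.29 for Sdcbp, -0.44 ± 0.49 for Tsg101 and -0.89 ± 0.29 for Pdcd6ip (SE). Between OSCA-40 and OSCA-32, Pf4 (1.78 ± 0.25), Pecam1 (0.83 ± 0.15) and Cd9 (-0.94 ± 0.11) passed; no marker passed in the other comparisons. The part of these markers in the values of Ltbp1, Ddr2, Vcan, Sparc and Fn1 was not tested.

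For each member that passed, the 3 tested mouse genes with the most similar scaled values over the 8 libraries were listed, out of 7655. The likeness is Pearson's r over 8 libraries that share 4 groups and the same scaling, given as a description. For Ltbp1 they were Wapl, which releases cohesin from chromosomes (r = 0.992), Herc3, a ubiquitin ligase gene (0.990), and Brwd1, a bromodomain gene (0.987). Herc3, like Ltbp1, stood high, at 111 and 111 with OSCA-40, 408 and 461 with OSCA-32, 915 and 909 with PBS and 717 and 632 at week 0. For Ddr2 they were Cd300lf, a myeloid receptor gene (0.978), the splicing factor gene Srsf12 (0.970) and Ndufb2, a subunit of respiratory complex I (0.967). Cd300lf was listed at 4 and 4 with OSCA-40, 8 and 9 with OSCA-32, 122 and 124 with PBS and 115 and 114 at week 0. For Vcan they were Zfp451 (0.995), the general transcription factor gene Gtf2a2 (0.988) and the processed pseudogene Gm3852 (0.984), which like Vcan had 0 in each OSCA-40 library. No other gene of the matrix lists was among these 9.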

How the data were processed

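RNA of serum exosomes, enriched with ExoQuick per the labels' protocols, was measured in 8 libraries. Tools named in the submitters' processing notes are kallisto 0.43.0, Trimmomatic 0.33.0 and FastQC 0.11.5, with CanFam3.1 and GRCm38.p5 as genome builds. Which transcripts were indexed is not given in the sources used here. Values in the deposited table are whole numbers, treated here as a score, since library totals are nearly equal; whether the authors rounded or shortened them is not settled, and they keep no depth, so no counting interval is given.

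Genes with at least 10 in at least 2 libraries were tested (7655 mouse, 217 canine). Libraries were scaled with the first week 0 library as the base, by trimmed log ratios averaged without weights (30% of ratios and 5% of levels trimmed at each end). limma 3.58.1 in R 4.3.3, with a variance trend, was run on log2(scaled value + 1) over all 8 libraries, with a mean per group, and p-values were adjusted by Benjamini-Hochberg over all 7872 genes within each of 4 comparisons. On this scale fold changes of low genes are understated. Symbols, coordinates and transcripts come from GENCODE release M21 (GRCm38), which matched 31171 mouse identifiers; shared words of 31 bases were counted over all its transcripts. The fit was tested on simulated data. Members and gene lists were chosen with earlier results of these data known, and the vesicle list was added last; all members are named, as are list genes that passed, the 2 most abundant of each list, and the 3 genes most like each called member. The remaining tested TGF-beta latency, matrix receptor, endothelial, hepatocyte and vesicle genes were named after their values were seen. Canine genes were not analysed by name here.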

Additional observations from a re-analysis of the deposited data

Results flagged for a closer look

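For Vcan and Ltbp1 the effects of the lines, each against PBS, differed by the direct test of OSCA-40 against OSCA-32. The difference was -2.96 on the log2 scale for Vcan, which had 0 in each OSCA-40 library, so the value depends on the pseudocount, and -0.67 for Ltbp1 (limma adjusted p = 0.0312 and 0.00565). Among the 11 alternatives that left no single library out, the call held in 8 for Vcan and in 9 for Ltbp1. Neither held with only the groups compared fitted (limma adjusted p = 0.2065 and 0.06125).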

How the results depend on the processing

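With OSCA-40 against PBS, Ltbp1 and Ddr2 passed as lower under every alternative run. With library totals alone, genes called numbered 6725 for OSCA-40 against PBS, 1353 for OSCA-32 against PBS and 4638 between the lines (531, 87 and 216 with the scaling). OSCA-40 against PBS then held 8 members (3 with the scaling), and the lines 6 (2 with it). Some values took the opposite sign there: Col1a2 at -1.47 and Fn1 at -1.37 for OSCA-40 against PBS, and Ddr2 at -1.01 and Fn1 at -0.82 between the lines. This follows from the shift of all mouse genes. Without a filter the genes called were 2138 for OSCA-40 against PBS, 1643 between the lines and 2 for PBS against week 0 (13 with it), and OSCA-32 held 0 members (2 with it); a minimum of 5 gave 1 member for OSCA-32 and 8 genes for PBS against week 0. A pseudocount of 4 left 1 member between the lines. Fitting only the groups compared gave 311 genes for OSCA-40, 46 genes and 1 member for OSCA-32, 79 genes and 0 members between the lines and 2 genes for PBS against week 0, with fewer libraries behind the spread. Without a variance trend, chosen after seeing the data, OSCA-40 had 311 genes, OSCA-32 0 members, the lines 114 genes and 1 member, and PBS against week 0 5 genes. For the other changes the cause was not tested.

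Same-numbered libraries did not deviate together over all tested genes (r from -0.06 to 0.01). Such an r says little about single genes, and whether the numbers mark a shared batch was not tested further. With the replicate block OSCA-32 held 1 member, the lines 1 and PBS against week 0 6 genes. Leaving out each library gave 269 to 542 genes and 2 to 3 members for OSCA-40, 37 to 88 and 0 to 2 for OSCA-32, 69 to 161 and 0 to 2 between the lines, and 2 to 7 and 0 to 0 for PBS against week 0, with 1 library in the group left short. Values near 1 step of the deposited scale limit Vcan, Col3a1, Bglap and Spp1.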
